A study of Drosophila melanogaster with 9 samples.

Results

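Eye imaginal discs of rbf1 mutant larvae were set directly against eye discs that overexpress PSC. The comparison used 6 of the 9 arrays of the series, chosen by their labels, with 3 arrays of each genotype, and it was described over all 11983 genes tested. The rbf1 mutant discs were labelled rbf1120a Gal4, and rbf1120a is known as a partial loss-of-function allele of Rbf. The PSC overexpressing discs were labelled w1118 psc, with no mention of Gal4. The remaining 3 arrays, of control discs labelled w1118 Gal4, stayed out of the contrast and are given as a level of reference. All discs came from larvae of the third instar. The labels name neither the Gal4 driver nor the cells in which PSC was overexpressed, and they do not give the number of larvae per array. The labels call the arrays of a group biological replicates. Stock goes with group, so genotype and stock background cannot be told apart. RNA was read on the Affymetrix Drosophila Genome 2.0 Array, and every level below is a log2 intensity, where a difference of 1 is a 2-fold difference.

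Rbf is the main fly member of the retinoblastoma family. It binds E2F/DP transcription factors and holds down genes that a cell needs to enter S phase, and together with the Myb-MuvB proteins it forms the DREAM complex, which also keeps some germline and differentiation genes silent. PSC, the product of Posterior sex combs, belongs to Polycomb repressive complex 1, which compacts chromatin and keeps Hox genes and other developmental regulators off where they are not needed. The third instar eye disc is an epithelium crossed by the morphogenetic furrow, with dividing progenitors ahead of it and differentiating photoreceptors behind it.

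The array medians over all probe sets lay between 5.84 and 5.86 in rbf1 mutant discs and between 5.86 and 5.88 in PSC discs. Across genes, Pearson correlations ran from 0.986 to 0.994 between an rbf1 mutant and a PSC array, from 0.993 to 0.996 among rbf1 mutant arrays and from 0.992 to 0.996 among PSC arrays. The label of the tissue was checked against eye disc genes. The retinal determination gene eya stood at 12.53, 12.54 and 12.48 in rbf1 mutant discs, against 12.50, 12.62 and 12.39 in PSC discs. The photoreceptor transcription factor gene gl stood at 12.12, 12.13 and 12.02 in rbf1 mutant discs, against 12.02, 12.19 and 11.93 in PSC discs. Both markers were bright on all 6 arrays and their groups overlapped. The salivary glue genes, which mark larval salivary gland and not disc, varied between arrays of a group. Their mean over 6 genes was 6.40, 11.75 and 7.11 in rbf1 mutant discs, against 9.53, 10.08 and 12.24 in PSC discs.

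Psc was far higher in the discs labelled as overexpressing it. Probe set 1631095_at read 9.95, 9.88 and 10.09 in rbf1 mutant discs, against 12.53, 12.49 and 12.50 in PSC discs, while control discs read 9.86, 9.86 and 9.80. All rbf1 mutant arrays lay below all PSC arrays and close to control. The difference was -2.53 (SE 0.058, limma adjusted p = 1.21e-07), or 5.77-fold lower in rbf1 mutant discs.

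Rbf differed by much less. Probe set 1623479_at read 9.43, 9.51 and 9.31 in rbf1 mutant discs, against 9.82, 9.96 and 9.63 in PSC discs and 9.83, 9.85 and 9.67 in control discs. The rbf1 mutant arrays were the lowest of all 9, and the PSC and control arrays overlapped. Rbf fell by 0.39 (SE 0.096, limma adjusted p = 0.0389), which is 1.31-fold lower. Where this probe set lies relative to the rbf1120a lesion is not known here, so its level does not check the mutant label. The call was lost when rbf1 array 1, 2 or 3, PSC array 1 or 2, or control array 1 or 2 was left out, with limma adjusted p up to 0.121, and it was also lost with only the 6 arrays in the fit (limma adjusted p = 0.0644). For Psc and for Rbf, an exact permutation test (two-sided) on the 6 arrays gave p = 0.1, the smallest that 3 against 3 allows.

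**Figure D1:**
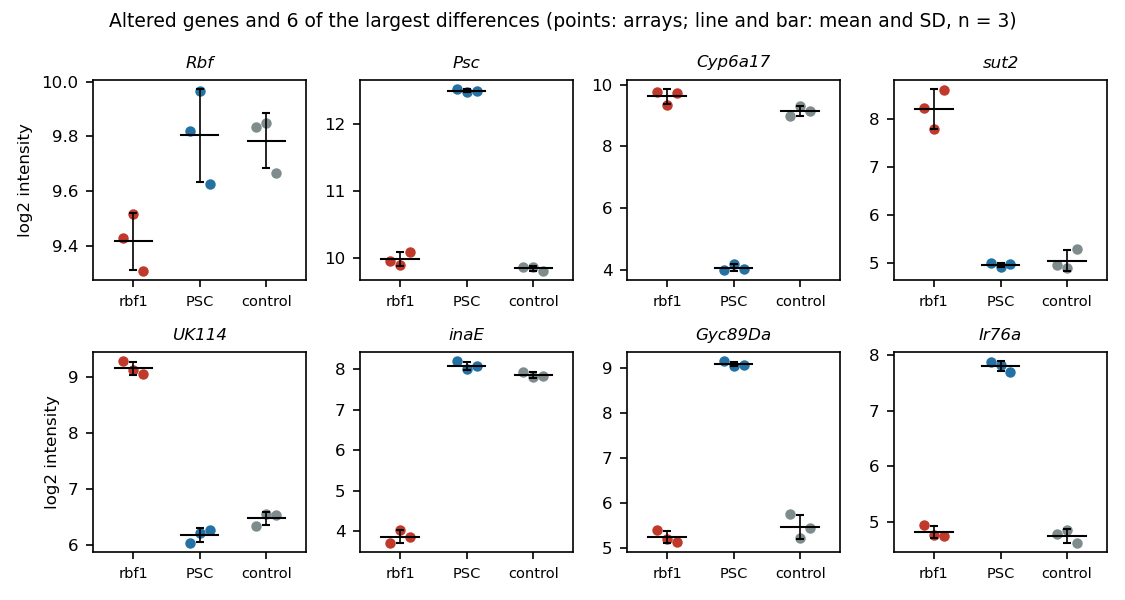
Log2 intensity of Rbf, Psc and 6 genes with large differences, by array, in rbf1 mutant, PSC overexpressing and control discs (points: arrays, with the mean and SD of n = 3). Control discs sit nearer rbf1 mutant discs for Psc, Cyp6a17, Gyc89Da and Ir76a, and nearer PSC discs for Rbf, sut2, UK114 and inaE.

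Across the transcriptome the contrast was broad and mostly of modest size. With limma and a Benjamini-Hochberg adjusted p under 0.05, 1266 of 11983 genes (10.6%) passed. Of these, 828 (6.91%) were higher and 438 (3.66%) were lower in rbf1 mutant than in PSC discs. The median gene that rose did so by 0.48, or 1.40-fold, and the median gene that fell did so by -0.40, or 1.32-fold lower. Only 109 genes (0.91%) rose at least 2-fold and 51 (0.426%) fell at least 2-fold. The arrays of the genotypes did not overlap for 3651 genes (30.5%). The median difference over all genes was -0.011, with quartiles of -0.092 and 0.088. The excess of rises depended on scaling. Genes called higher were 65.4% of all calls as deposited, 59.2% after quantile normalization over genes (715 higher and 492 lower) and 43.7% after each array was centred on its median (580 higher and 748 lower). Of the 1266 calls, 697 (494 higher and 203 lower) held without any 1 of the 9 arrays. Without PSC array 1 or without rbf1 array 2, 843 genes passed. Genes called lower numbered 263 without PSC array 1 and 276, 276 and 270 without rbf1 array 1, 2 and 3.

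For each call the control mean was compared with both group means, without a test. It lay between them for 714 of the 1266 calls, above both for 198 and below both for 354. Of the 828 genes that rose, the control mean was nearer the rbf1 mutant mean for 250 and nearer the PSC mean for 578. Of the 438 that fell, the control mean was nearer the rbf1 mutant mean for 161 and nearer the PSC mean for 277. Over all genes tested, the control mean was nearer the PSC mean for 56.1%. Differences of genes near background are compressed by the authors' normalization. The PSC mean was at or below 5 for 46 of the genes that rose, and the rbf1 mutant mean was at or below 5 for 64 of the genes that fell.

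**Figure D2:**
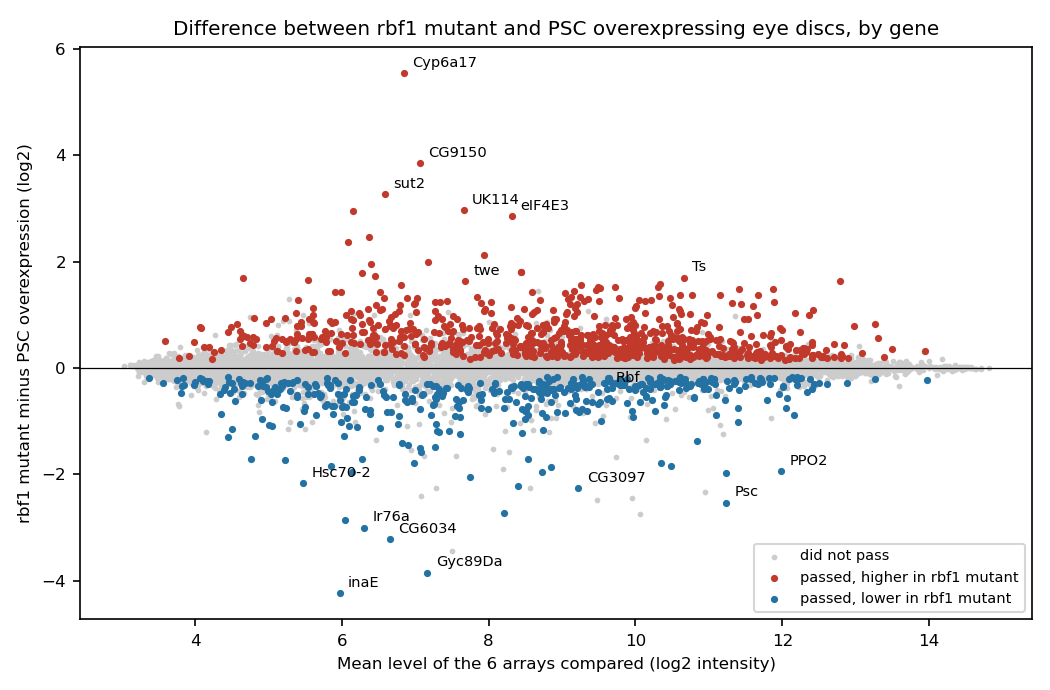
Difference between rbf1 mutant and PSC overexpressing discs (log2) against the mean level of the 6 arrays (log2 intensity), 1 point per gene. Red points (828) passed and were higher in rbf1 mutant discs, blue points (438) passed and were lower, and the labelled extremes run from Cyp6a17 at 5.54 to inaE at -4.23.

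The most uniform group was DNA replication. Of the 44 measured genes of a replication and G1/S list, 40 rose in rbf1 mutant discs relative to PSC discs by limma. None fell, also at an unadjusted p under 0.05. The called share was 90.9%, beside 10.6% over all genes. The median member was 0.98 higher, or 1.97-fold, beside a median of -0.011 over all genes. Of the 40 calls, 37 held without any 1 of the 9 arrays. Against control, the median member was 1.12 higher in rbf1 mutant discs and 0.13 higher in PSC discs, and those 2 comparisons share the control arrays. The mean level of the list was 10.94, 10.92 and 10.90 in rbf1 mutant discs, against 10.02, 10.12 and 9.87 in PSC discs and 9.94, 9.998 and 9.76 in control discs.

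The rise reached every step of replication that the list covers. All 4 measured subunits of the origin recognition complex, which marks origins, rose, with a median of 1.13. Orc1, its largest subunit, read 10.30, 10.24 and 10.20 in rbf1 mutant discs, against 8.76, 8.88 and 8.55 in PSC discs. The groups stood well apart, and the difference was 1.52 (SE 0.112, limma adjusted p = 0.00011). The licensing factors that load the helicase also rose, dup (the fly Cdt1) by 1.37 and Cdc6 by 0.81. All 5 measured MCM2-7 subunits, which form the replicative helicase, rose, with a median of 1.20. Mcm5 was the highest of these at 1.38 and Mcm6 the lowest at 1.0.

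Of 8 measured genes of helicase activation, 5 rose. Mcm10, which helps start unwinding, read 10.74, 10.64 and 10.68 in rbf1 mutant discs, against 9.41, 9.54 and 9.25 in PSC discs, a difference of 1.29 (SE 0.083, limma adjusted p = 6.62e-05). The PSC arrays overlapped the control arrays, which read 9.27, 9.34 and 9.12. RecQ4 rose by 1.45, and the GINS subunits Sld5 and Psf3 rose by 1.17 and 0.81. The other two GINS subunits did not pass, with Psf1 at -0.0059 and Psf2 at 0.03, nor did chif, the activating subunit of the Cdc7 kinase, at 0.05. The GINS complex was thus split on this array.

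Of 9 measured polymerase and primase subunits, 8 rose, with a median of 1.25. Prim1, the catalytic primase subunit, read 11.14, 11.03 and 11.05 in rbf1 mutant discs, against 9.55, 9.73 and 9.35 in PSC discs. It differed by 1.53 (SE 0.0995, limma adjusted p = 6.62e-05), the largest rise of the list, with no overlap. PolE1, which carries the catalytic activity of polymerase epsilon, read 10.13 on each of the 3 rbf1 mutant arrays, against 8.85, 8.98 and 8.76 in PSC discs (difference 1.26, SE 0.086, limma adjusted p = 8.28e-05). PolD3, a subunit of polymerase delta, did not pass, at 0.04.

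All 10 genes of the sliding clamp, its loader, the single-strand binding protein RPA and Okazaki fragment processing rose, though less, with a median of 0.69. PCNA, the clamp, rose by 0.79 and RfC3, a clamp loader subunit, by 0.28. All 3 histone chaperones that load new histones behind the fork rose. Of these, asf1 read 11.002, 10.93 and 11.03 in rbf1 mutant discs, against 9.98, 10.12 and 9.99 in PSC discs (difference 0.96, SE 0.059, limma adjusted p = 6.44e-05). CycE, the cyclin that drives S phase entry, read 12.11, 11.63 and 12.08 in rbf1 mutant discs, against 11.14, 11.04 and 10.89 in PSC discs, a rise of 0.92 (SE 0.146, limma adjusted p = 0.0053). The lowest rbf1 mutant array, the second, still exceeded every PSC array.

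**Figure D3:**
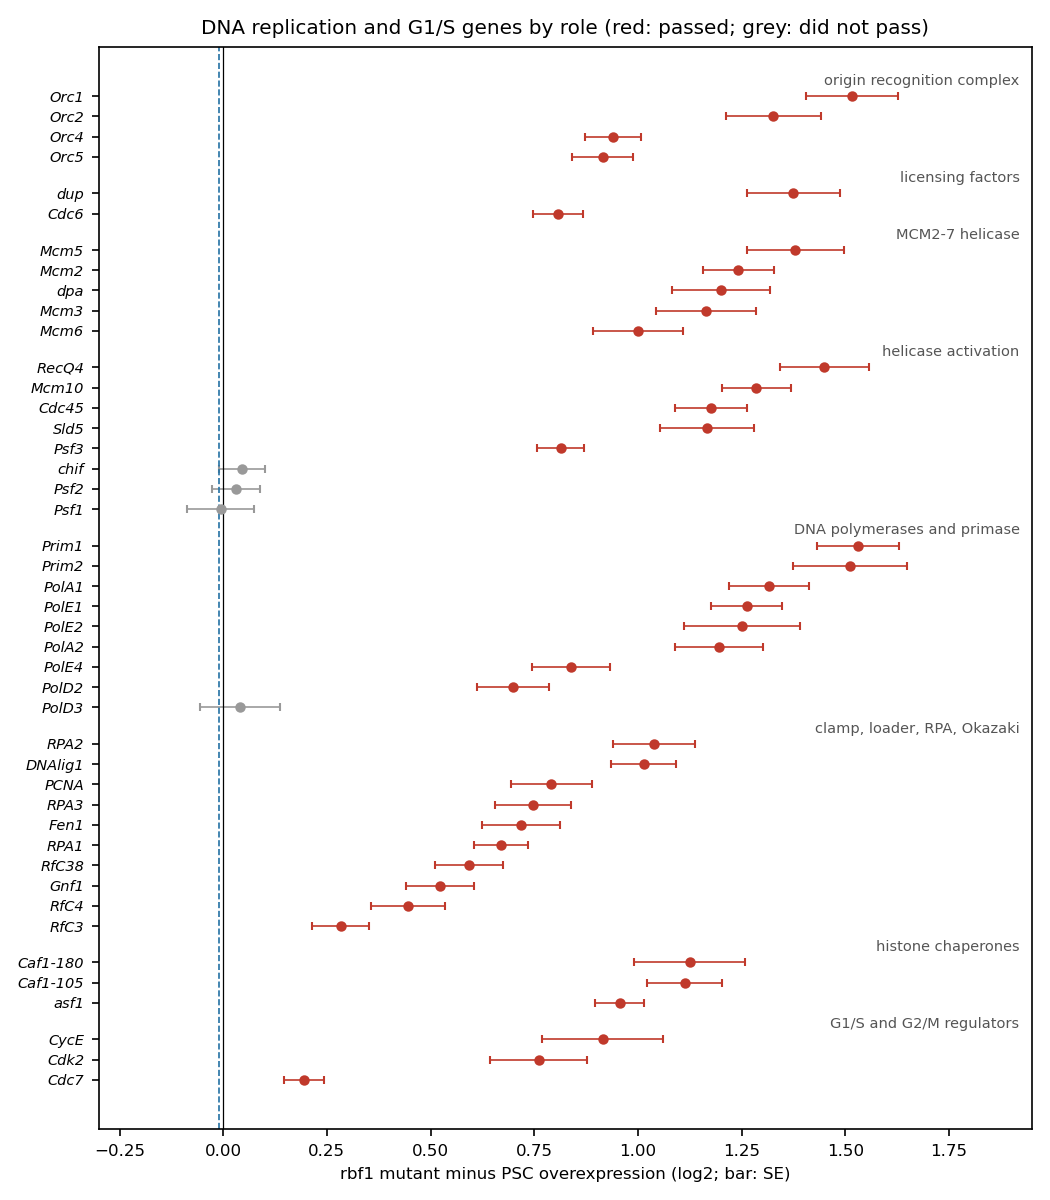
Difference between rbf1 mutant and PSC overexpressing discs (log2, bars: SE) for the 44 replication and G1/S genes, ordered by role. Red points (40) passed, the 4 grey points did not, the solid line marks 0 and the dashed line marks the median of all genes at -0.011.

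Nucleotide supply was split. Of 19 measured genes of nucleotide synthesis, 5 rose and 1 fell (31.6% called, beside 10.6% over all genes), and the list's median was -0.024. The enzymes of deoxynucleotide supply led. Ts, the thymidylate synthase, read 11.49, 11.57 and 11.46 in rbf1 mutant discs, against 9.81, 9.96 and 9.64 in PSC discs, a rise of 1.70 (SE 0.105, limma adjusted p = 6.44e-05). The groups did not overlap. The deoxynucleoside kinase gene dnk rose by 1.49, RnrL, the large subunit of ribonucleotide reductase, by 1.09, and dUTPase, which keeps uracil out of DNA, by 0.56. The gene that fell, Prat2 of purine synthesis, lay near background, with means of 4.04 in rbf1 mutant and 4.29 in PSC discs, and its call was lost without any 1 of 6 arrays (rbf1 1 or 2, PSC 1 or 2, control 1 or 2; limma adjusted p up to 0.12).

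Mitotic genes moved less than replication genes. Of 46 measured genes of mitosis and G2/M, 15 rose and 0 fell by limma, with a median of 0.17. The called share was 32.6%, beside 10.6% over all genes. At an unadjusted p under 0.05, 22 were higher and 1 was lower. The count fell to 9 without PSC array 1, without rbf1 array 2, and with arrays centred on their medians. The genes named here held in each of these settings. twe, the Cdc25 phosphatase of meiosis, read 8.57, 8.46 and 8.47 in rbf1 mutant discs, against 6.90, 6.81 and 6.87 in PSC discs, a rise of 1.64 (SE 0.102, limma adjusted p = 6.5e-05). cid, the centromeric histone H3 variant, read 9.39, 9.28 and 9.24 in rbf1 mutant discs, against 8.02, 7.96 and 7.65 in PSC discs, a rise of 1.43 (SE 0.124, limma adjusted p = 0.000242). Both genes had groups more than 1 log2 unit apart. cal1, which loads CID at centromeres, rose by 0.40, and eco, the acetyltransferase that sets cohesion in S phase, by 0.78. The mitotic cyclin gene CycB did not pass, at 0.13 (limma adjusted p = 0.33).

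Genes of DNA repair and the damage checkpoint rose in 19 of 39 cases and fell in 1, with a median of 0.23. That was 51.3% called, beside 10.6% over all genes. Of these 20 calls, 18 held without any 1 of the 9 arrays. timeout, a Timeless family gene, read 9.96, 10.13 and 10.02 in rbf1 mutant discs, against 8.38, 8.61 and 8.46 in PSC discs, a rise of 1.55 (SE 0.090, limma adjusted p = 5.12e-05). Claspin, an adaptor of the replication checkpoint, rose by 1.30, mms4, a subunit of a structure-specific nuclease, by 1.05 and Pms2 of mismatch repair by 0.61. The gene that fell was hay, the XPB helicase of TFIIH, at -0.32 (SE 0.040, limma adjusted p = 0.00179). It read 9.66, 9.63 and 9.69 in rbf1 mutant discs, against 9.97, 9.98 and 9.99 in PSC discs, and control discs at 9.83, 9.76 and 9.79 lay between them. Of 23 genes of apoptosis and p53 response, 13% were called, near the 10.6% over all genes. Among them 3 rose and 0 fell by limma (4 and 0 at an unadjusted p under 0.05). They include Corp, a p53 target gene, at 1.0 and Damm, a caspase gene, at 0.93. Damm in rbf1 mutant discs (5.23, 5.32 and 5.25) stood above PSC discs (4.33, 4.42 and 4.25) but not above control discs (5.95, 5.55 and 5.29).

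Among the RB, E2F and DREAM proteins themselves, 5 of 13 measured genes rose and 2 fell (53.8% called, beside 10.6% over all genes). Rbf2, the second fly retinoblastoma family gene, read 9.73, 9.91 and 9.91 in rbf1 mutant discs, against 9.20, 9.30 and 8.94 in PSC discs, a rise of 0.70 (SE 0.117, limma adjusted p = 0.00671). Rbf2 was thus high in the arrays in which Rbf was low. lin-52, a Myb-MuvB subunit, rose by 0.57 and Dp, the E2F partner, by 0.41, and these 3 calls held without any 1 of the 9 arrays. The other 4 calls, Rbf and CycD among them, were each lost in at least 1 fit that left out 1 array. The rises numbered 3 without any 1 of 7 arrays and with centred arrays. CycD, the Cdk4 cyclin, fell by 0.31 and lost its call without rbf1 array 3 or PSC array 1 or 2 (limma adjusted p up to 0.057).

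Polycomb group genes apart from Psc also moved. Of 19 measured, 6 rose and only Psc fell (36.8% called, beside 10.6% over all genes), with a median of 0.17. Of the 7 calls, 5 held without any 1 of the 9 arrays. With arrays centred on their medians, 2 genes of the list were lower. The members that rose and held are known from Polycomb repressive complex 2, which methylates histone H3. Su(z)12, a core subunit, read 12.23, 12.28 and 12.25 in rbf1 mutant discs, against 11.85, 11.87 and 11.85 in PSC discs, a rise of 0.40 (SE 0.044, limma adjusted p = 0.000889). esc, another core subunit, rose by 0.61, and the accessory subunits Pcl and Jarid2 rose by 0.47 and 0.37. The catalytic subunit E(z) did not pass, at 0.18 (limma adjusted p = 0.104). The partners of PSC in complex 1 that were measured did not pass either, with Pc at -0.11 and Sce at -0.17. Of 26 Trithorax group genes, usual antagonists of Polycomb, 2 rose and 0 fell by limma (8 and 1 at an unadjusted p under 0.05). The call of tna was lost without any 1 of the 9 arrays. That of polybromo was lost without rbf1 array 2 or 3 or PSC array 1 or 3. The called share of the Trithorax list was 7.69%, beside 10.6% over all genes.

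Several developmental regulators separated the genotypes. Of 70 measured Hox genes and other known Polycomb targets, 13 rose and 3 fell in rbf1 mutant relative to PSC discs, with a median of 0.035. The called share was 22.9%, beside 10.6% over all genes. The rises numbered 8 without rbf1 array 1 or 2 or PSC array 2, and the split was 8 higher and 5 lower with arrays centred on their medians. vg, the wing selector gene, read 6.28, 6.01 and 6.05 in rbf1 mutant discs, against 5.13, 5.04 and 5.17 in PSC discs, a rise of 0.997 (SE 0.099, limma adjusted p = 0.000471). Control discs at 5.71, 5.54 and 5.86 lay between the groups, and the PSC minus control difference was -0.59 (limma adjusted p = 0.0154), a comparison in which 455 genes (3.8%) passed. The other vg probe set differed by 1.20.

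Dr, a muscle segment homeobox gene, read 8.07, 8.05 and 7.94 in rbf1 mutant discs, against 7.16, 7.14 and 7.03 in PSC discs, a rise of 0.91 (SE 0.103, limma adjusted p = 0.000957). Control discs stood at 7.86, 7.45 and 7.80, and the PSC minus control difference was -0.60 (limma adjusted p = 0.0171). The smaller rises of gsb (0.43), a paired family segment polarity gene, and tsh (0.41), a zinc finger regulator of trunk and progenitor identity, also held. Among the 3 falls, the homeobox genes Lim1 at -0.34 and C15 at -0.31 held without any 1 of the 9 arrays, although Lim1 did not pass with the mean of its probe sets and the other C15 probe set differed by -0.13. The Hox gene Antp varied more within groups than between them (5.18, 4.75 and 6.40 in rbf1 mutant discs, against 4.75, 5.31 and 5.16 in PSC discs).

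Of 14 measured retinal determination genes, 2 rose and 2 fell (28.6% called, beside 10.6% over all genes). tio, a paralogue of tsh, read 6.76, 6.71 and 6.60 in rbf1 mutant discs, against 6.18, 6.27 and 5.97 in PSC discs, a rise of 0.55 (SE 0.087, limma adjusted p = 0.00525). Control discs at 6.64, 6.82 and 6.68 overlapped the rbf1 mutant discs and not the PSC discs. dac read 11.61, 11.72 and 11.80 in rbf1 mutant discs, against 12.15, 12.38 and 12.07 in PSC discs. This difference of -0.49 lost its call without any 1 of the 3 rbf1 mutant arrays or PSC array 1 or 2 (limma adjusted p up to 0.102). The core genes so (-0.04), ey (-0.14) and Optix (0.03) did not pass.

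In the JAK/STAT list, 2 of 13 genes rose and 1 fell (23.1% called, beside 10.6% over all genes). chinmo, a BTB zinc finger gene activated by this pathway in the eye disc, read 9.49, 9.77 and 9.90 in rbf1 mutant discs, against 8.73, 8.51 and 8.80 in PSC discs, a rise of 1.04 (SE 0.141, limma adjusted p = 0.00243). The PSC arrays were the lowest of all 9. Of the other chinmo probe sets, 1 differed by 1.01 and 1 by 0.13. lama, which marks undifferentiated cells of the optic system, fell by 0.64 (SE 0.096, limma adjusted p = 0.00405). zfh2, a homeodomain zinc finger gene, was 0.70 higher, a call lost without PSC array 2 (limma adjusted p = 0.0523). The pathway's own transcription factor gene Stat92E (-0.02) and ligand gene upd1 (0.10) did not pass.

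Genes of the furrow and early neurogenesis moved in both directions. Of 38 measured, 4 rose and 7 fell (28.9% called, beside 10.6% over all genes), with a median of -0.079. Of the 11 calls, 5 held without any 1 of the 9 arrays. The falls numbered 3 without any 1 of the 3 rbf1 mutant arrays or PSC array 1 or 2, and the rises 2 without rbf1 array 3 or PSC array 1 or 3. ase, a proneural family gene of neural precursors, read 6.97, 7.05 and 7.13 in rbf1 mutant discs, against 6.02, 5.85 and 5.75 in PSC discs, a rise of 1.18 (SE 0.180, limma adjusted p = 0.00429). Control discs at 7.16, 6.37 and 6.95 overlapped the rbf1 mutant discs. ato, the proneural gene of the founder photoreceptor R8, read 10.80, 10.91 and 10.82 in rbf1 mutant discs, against 11.30, 11.52 and 11.26 in PSC discs. The difference was -0.52 (SE 0.094, limma adjusted p = 0.00996), with control discs at 11.17, 11.29 and 10.99 above the rbf1 mutant discs and overlapping the PSC discs.

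Called genes of the Enhancer of split complex, which respond to Notch, went both ways. E(spl)m4-BFM, a Bearded family gene, read 12.10, 12.17 and 12.08 in rbf1 mutant discs, against 12.56, 12.62 and 12.51 in PSC discs, a difference of -0.45 (SE 0.048, limma adjusted p = 0.000712). E(spl)m5-HLH, a bHLH repressor, also fell by 0.45 (SE 0.075, limma adjusted p = 0.00692). For both genes the PSC discs overlapped control discs and the rbf1 mutant discs lay below. E(spl)m6-BFM, another Bearded family gene, was 0.44 higher near background, at 5.13, 4.90 and 5.01 in rbf1 mutant discs, against 4.47, 4.63 and 4.61 in PSC discs. Its call was lost without rbf1 array 1 or 3 or PSC array 1 or 3 (limma adjusted p up to 0.082). Of 54 later photoreceptor genes, 2 rose and 2 fell, a share of 7.41% beside 10.6% over all genes, and 2 of these calls held without any 1 of the 9 arrays. elav, the pan-neuronal gene, read 11.76, 11.82 and 11.56 in rbf1 mutant discs, against 11.60, 11.05 and 11.50 in PSC discs, and did not pass (0.33, limma adjusted p = 0.221). In bulk discs, a smaller number of cells of a type and less RNA per cell cannot be told apart.

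**Figure D4:**
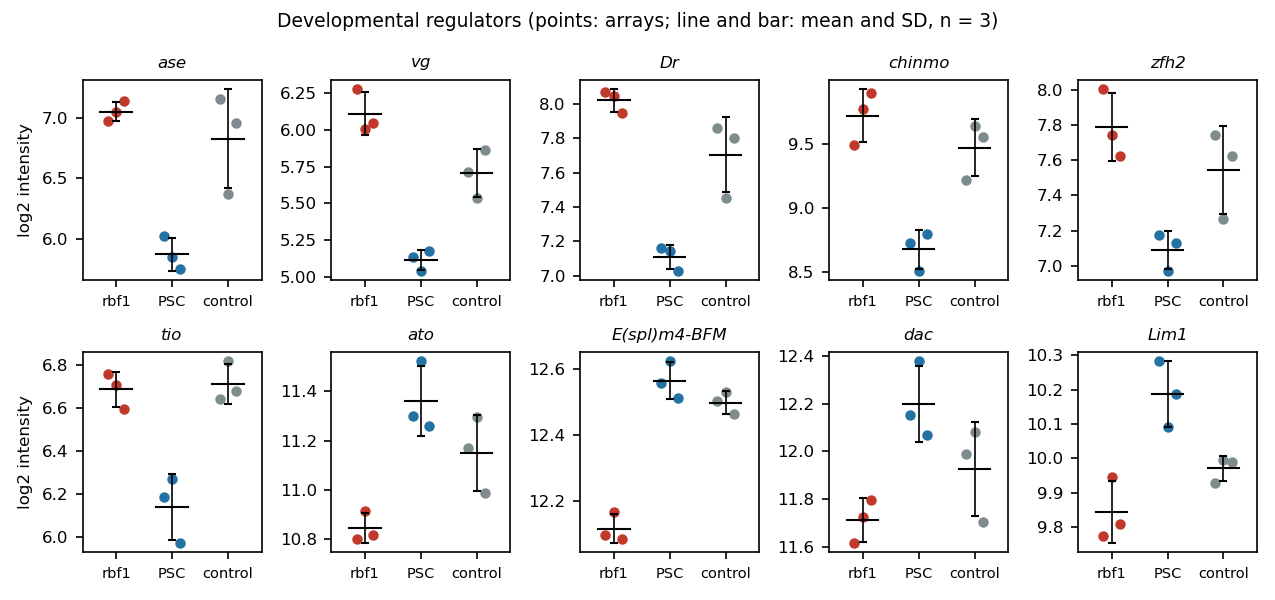
Log2 intensity of 10 developmental regulators by array in rbf1 mutant, PSC overexpressing and control discs (points: arrays, with the mean and SD of n = 3). The first 6 genes, ase to tio, were higher and the last 4, ato to Lim1, lower in rbf1 mutant than in PSC discs.

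Some germline genes were higher. Of 47 measured genes of the germline and the piRNA pathway, which silences transposons in gonads, 8 rose and 2 fell. This was 21.3% called, beside 10.6% over all genes, and the rises numbered 5 without rbf1 array 3. The falls numbered 0 or 1 without any 1 of the 9 arrays. spn-E, a helicase of piRNA production, read 9.49, 9.32 and 9.44 in rbf1 mutant discs, against 8.35, 8.34 and 8.29 in PSC discs, a rise of 1.09 (SE 0.067, limma adjusted p = 6.44e-05). tej, its Tudor domain partner, rose by 0.94, mael by 0.86 and shu, a co-chaperone of piRNA loading, by 0.80. Of 33 genes of the testis tMAC complex and spermatogenesis, 4 rose and 0 fell by limma (9 and 3 at an unadjusted p under 0.05). Their called share of 12.1% was near the 10.6% over all genes. The tMAC subunit genes topi and tomb rose by 0.82 and 0.40, both from low levels, with PSC means of 4.15 and 4.76. RpS5b, a ribosomal protein paralogue used in the germline, read 9.39, 9.17 and 9.08 in rbf1 mutant discs, against 7.99, 8.23 and 8.13 in PSC discs. It rose by 1.09 (SE 0.096, limma adjusted p = 0.000249) and was the only call among 34 cytosolic ribosomal protein genes.

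The single largest differences lay outside the cell cycle. Cyp6a17, a cytochrome P450 known for its part in temperature preference, read 9.77, 9.34 and 9.74 in rbf1 mutant discs, against 4.01, 4.20 and 4.02 in PSC discs. Control discs read 8.996, 9.29 and 9.14. The PSC arrays alone were near background. The difference of 5.54 (SE 0.125, limma adjusted p = 1.21e-07), or 46.6-fold, thus came with a PSC minus control difference of -5.07. CG9150 had a similar layout, with 9.14, 8.94 and 8.89 in rbf1 mutant discs and 4.96, 5.05 and 5.42 in PSC discs. Control discs read 8.59, 8.35 and 8.46. The rise was 3.85 (SE 0.127, limma adjusted p = 1.14e-06). Against control, rbf1 mutant discs were 0.52 higher for CG9150 (limma adjusted p = 0.0364) and 0.47 higher for Cyp6a17 (limma adjusted p = 0.0502).

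In other genes the rbf1 mutant discs were the ones that stood apart. sut2, of the sugar transporter family, read 8.24, 7.80 and 8.63 in rbf1 mutant discs, against 4.99, 4.90 and 4.97 in PSC discs, a rise of 3.27 (SE 0.193, limma adjusted p = 5.26e-05). UK114, of the RidA enamine deaminase family, read 9.27, 9.12 and 9.04 in rbf1 mutant discs, against 6.04, 6.21 and 6.28 in PSC discs, a rise of 2.97 (SE 0.090, limma adjusted p = 7.24e-07). Control discs lay near PSC discs for both genes, at 4.96, 4.88 and 5.29 for sut2 and at 6.35, 6.57 and 6.53 for UK114. Further down this ranking came CG18473 (2.46), the long noncoding RNA gene lncRNA:CR32027 (2.12), Dscam4 (1.99), an immunoglobulin superfamily gene, and lobo (1.79), a gene of sperm tail motility. The other two Dscam4 probe sets differed by 0.23 and 0.04, and the other lobo set by -0.19.

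inaE, whose diacylglycerol lipase acts in phototransduction, had the most negative difference. Probe set 1625176_at read 3.71, 4.02 and 3.85 in rbf1 mutant discs, against 8.19, 7.999 and 8.07 in PSC discs and 7.93, 7.81 and 7.82 in control discs. The difference was -4.23 (SE 0.087, limma adjusted p = 1.21e-07), or 18.7-fold. The other 4 inaE probe sets differed by -0.61, 0.02, -0.16 and -0.50, so a fall of this size was read by 1 of 5 probe sets.

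In several large falls the PSC discs stood apart, and the rbf1 mutant and control discs were both low. Gyc89Da, an atypical guanylyl cyclase gene of oxygen sensing, read 5.40, 5.20 and 5.13 in rbf1 mutant discs, against 9.14, 9.05 and 9.07 in PSC discs, a difference of -3.84 (SE 0.127, limma adjusted p = 1.14e-06). Control discs read 5.75, 5.22 and 5.45. Ir76a, an olfactory ionotropic receptor gene, read 4.93, 4.76 and 4.74 in rbf1 mutant discs, against 7.88, 7.82 and 7.71 in PSC discs and 4.78, 4.86 and 4.61 in control discs. The difference was -2.997 (SE 0.084, limma adjusted p = 4.21e-07), and Ir76a was the only call among 53 ionotropic receptor genes. Root, which encodes the ciliary rootlet protein of sensory neurons, read 6.72, 6.75 and 6.69 in rbf1 mutant discs, against 8.73, 8.81 and 8.77 in PSC discs, a difference of -2.05 (SE 0.050, limma adjusted p = 1.79e-07). Control discs at 6.99, 6.93 and 7.08 lay slightly above the rbf1 mutant discs. CG17109 (-2.86) and swi2 (-1.96) shared this layout. CG3097 (-2.26) and Hsc70-2 (-2.16), a heat shock cognate gene, instead had control discs near PSC discs. CG4210 was 2.73 lower with wide spread, and its call was lost without PSC array 1 or 3 (limma adjusted p up to 0.0545).

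Detoxification families moved in both directions. Of 80 cytochrome P450 genes, 10 rose and 4 fell (17.5% called, beside 10.6% over all genes), with a median of 0.043. The rises numbered 6 without rbf1 array 3. Besides Cyp6a17, Cyp4e1 rose by 1.43 and Cyp6a13 by 1.07. Cyp4p2 read 10.92, 10.95 and 10.80 in rbf1 mutant discs, against 11.94, 11.93 and 11.84 in PSC discs, a difference of -1.01 (SE 0.057, limma adjusted p = 5.03e-05). Its relative Cyp4p1 fell by 0.62, and control discs lay between the groups for both genes. Of 34 glutathione S-transferase genes, 3 rose and 3 fell (17.6% called), with 1 rise in centred arrays and 1 fall without PSC array 1. GstE5 read 8.37, 8.48 and 8.67 in rbf1 mutant discs, against 7.37, 7.28 and 7.21 in PSC discs, a rise of 1.22 (SE 0.080, limma adjusted p = 6.62e-05). GstD9 read 9.55, 9.48 and 9.48 in rbf1 mutant discs, against 10.47, 10.54 and 10.25 in PSC discs, a difference of -0.91 (SE 0.086, limma adjusted p = 0.000352).

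Metal response genes were mostly lower where they differed. Of 17 measured, 1 rose and 4 fell (29.4% called, beside 10.6% over all genes). MtnB, a metallothionein that binds heavy metals, read 5.75, 5.29 and 5.25 in rbf1 mutant discs, against 7.10, 7.36 and 6.93 in PSC discs, a difference of -1.70 (SE 0.176, limma adjusted p = 0.000587). MtnD, another metallothionein, fell by 1.09 and Ctr1A, the copper importer, by 0.69. The rbf1 mutant discs were the lowest group for all 3 genes. The fourth fall, MtnA at -0.88, lost its call without rbf1 array 3 or any 1 of the 3 PSC arrays (limma adjusted p up to 0.0894). The rise, of the metal-responsive factor gene MTF-1 at 0.30, lost its call without any 1 of 7 arrays.

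Other families of transport and sensing are set beside the 10.6% of genes called over the whole array. Of 35 UDP-glucuronosyltransferase genes, which conjugate toxins, 4 (11.4%) rose and 0 fell by limma (4 and 2 at an unadjusted p under 0.05). The rises numbered 2 without rbf1 array 2 or 3 or PSC array 1 or 2, and 2 genes fell with centred arrays. Ugt305A1 rose by 0.92 and Ugt302K1 by 0.81, and these 2 held without any 1 of the 9 arrays. Ugt302K1 read 10.33, 10.46 and 10.20 in rbf1 mutant discs, against 9.52, 9.45 and 9.59 in PSC discs, and control discs at 10.66, 10.38 and 10.68 overlapped the rbf1 mutant discs. Of 27 maltase and sugar transporter genes, 3 rose and 2 fell (18.5% called), sut2 by far the most. Glut1, a glucose transporter gene, read 8.64, 8.67 and 8.57 in rbf1 mutant discs, against 8.90, 8.91 and 9.04 in PSC discs, a difference of -0.32 that lost its call without rbf1 array 3 (limma adjusted p = 0.0562). The other Glut1 probe sets, dimmer on average, differed by -1.13 (adjusted p = 0.0158 in the limma fit of single probe sets) and -0.49 (adjusted p = 0.187).

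Of 47 odorant binding protein genes, 2 rose and 4 fell (12.8% called, beside 10.6% over all genes). Of these calls, 3 held without any 1 of the 9 arrays. The falls numbered 2 without rbf1 array 2, and the split was 1 higher and 7 lower with centred arrays. Obp69a read 6.19, 5.93 and 5.99 in rbf1 mutant discs, against 5.27, 5.21 and 5.10 in PSC discs, a rise of 0.85 (SE 0.075, limma adjusted p = 0.000265). Its control level of 6.41, 6.44 and 6.40 was above both. Obp19d fell by 0.95 and Obp99a by 0.76. Of 57 olfactory receptor genes, only Or47a rose, by 0.67, and 0 fell by limma (3 and 3 at an unadjusted p under 0.05). Of 56 gustatory receptor genes, 0 passed by limma (0 higher and 4 lower at an unadjusted p under 0.05).

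Stress and immune lists held few genes. Of 14 heat shock genes, 2 rose and 1 fell (21.4% called, beside 10.6% over all genes). stv, a co-chaperone gene, rose by 0.41 and held without any 1 of the 9 arrays. Of 29 immune genes, 3 rose and 1 fell (13.8% called), and only GNBP3, a fungal recognition protein gene, held, at 11.84, 11.95 and 11.83 in rbf1 mutant discs, against 11.44, 11.32 and 11.48 in PSC discs (difference 0.46, SE 0.065, limma adjusted p = 0.00293). Control discs at 12.06, 11.89 and 12.01 overlapped the rbf1 mutant discs. Of 28 ecdysone response genes, 1 rose and 0 fell by limma (5 and 0 at an unadjusted p under 0.05), and that call was lost without any 1 of 7 arrays. Of 16 ecdysteroid synthesis genes, 0 passed by limma (1 higher and 0 lower at an unadjusted p under 0.05). In the Hippo growth pathway, 2 of 17 genes rose and 0 fell by limma (4 and 1 at an unadjusted p under 0.05). This was 11.8% called, near the 10.6% over all genes. CycE, also a replication list member, was the call that held.

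Growth and energy lists had called shares below the 10.6% of all genes. Of 72 respiratory chain genes, 0 rose and 2 (2.78%) fell by limma (0 and 9 at an unadjusted p under 0.05). ND-B16.6 lost its call without any 1 of the 9 arrays, and ATPsynCF6 without any 1 of 7. With centred arrays 6 fell. Of 40 proteasome subunit genes, 0 rose and 1 fell by limma (0 and 4 at an unadjusted p under 0.05), and that call, of the paralogue gene Rpt3R at -0.47, was lost without rbf1 array 2 or 3 or PSC array 1 (limma adjusted p up to 0.0591). Of 71 mitochondrial ribosomal protein genes, 0 rose and 5 (7.04%) fell by limma (2 and 7 at an unadjusted p under 0.05). The falls numbered 2 without rbf1 array 1 or 3, PSC array 1 or 2 or control array 2, and 3 without PSC array 3 or control array 1. tko, the mitochondrial ribosomal protein S12 gene, stood apart with 10.23, 10.18 and 10.07 in rbf1 mutant discs, against 11.51, 11.62 and 11.45 in PSC discs, a difference of -1.37 (SE 0.063, limma adjusted p = 1.6e-05). Control discs at 11.53, 11.44 and 11.41 overlapped the PSC discs. tko sits between gt and boi among the tested genes in annotation order, and all 3 fell. Runs of at least 3 neighbouring calls in 1 direction were 6 in all, and an expected number was not computed. Of 1262 called genes, 118 (9.35%) had a next neighbour called the same way. Over all genes, 6.91% were called higher and 3.66% lower. Of 27 ribosome biogenesis genes, 0 passed by limma (0 higher and 1 lower at an unadjusted p under 0.05). Of the 10 tested genes nearest to Rbf, 5 on each side, 0 passed. Of the 10 nearest to Psc, the transporter gene Mdr49 (0.41, limma adjusted p = 0.0249) and Drl-2 (-0.60, limma adjusted p = 0.000456), a receptor kinase gene of the Ryk family, passed. Over all genes, 10.6% passed, and so few neighbours do not describe either neighbourhood.

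A subset of genes placed the genotypes on opposite sides of control. In 183 of the 1266 called genes, all 3 arrays of 1 altered genotype lay above and all 3 of the other below all 3 control arrays, and this was 14.45% of the calls. In 103 of them rbf1 mutant discs were above and PSC discs below, and in 80 it was the reverse. Without control array 3 the count was 296. A left-out array also drops out of the rule, which is then easier to meet. CG11158 read 7.62, 7.60 and 7.52 in rbf1 mutant discs, against 6.12, 6.31 and 5.65 in PSC discs, with 6.77, 6.62 and 6.81 in control discs (difference 1.55, SE 0.148, limma adjusted p = 0.000376). Listericin, an antibacterial protein gene, read 13.45, 13.70 and 13.69 in rbf1 mutant discs, against 11.61, 11.85 and 12.45 in PSC discs, with 12.93, 12.90 and 12.94 in control discs (difference 1.64, SE 0.186, limma adjusted p = 0.000958). eIF4E3, a cap-binding factor of spermatogenesis, read 10.21, 9.70 and 9.30 in rbf1 mutant discs, against 6.93, 7.12 and 6.62 in PSC discs, a rise of 2.85 (SE 0.249, limma adjusted p = 0.000249). The rule that picked these 3 genes requires that no array of either genotype reach the control range.

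The reverse layout held for CG6034, at 5.47, 4.77 and 4.90 in rbf1 mutant discs, against 8.43, 8.49 and 7.86 in PSC discs (difference -3.21, SE 0.283, limma adjusted p = 0.000259). The prophenoloxidase genes of crystal cells, a blood cell type, did the same. PPO2 read 10.99, 10.46 and 11.61 in rbf1 mutant discs, against 13.05, 13.17 and 12.64 in PSC discs (difference -1.94, SE 0.283, limma adjusted p = 0.0035). PPO1 differed by -1.97 (SE 0.279, limma adjusted p = 0.00305). The fat body gene Fbp2 read 7.001, 7.29 and 7.60 in rbf1 mutant discs, against 9.40, 9.30 and 9.82 in PSC discs, a difference of -2.21 (SE 0.315, limma adjusted p = 0.00309).

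**Figure D5:**
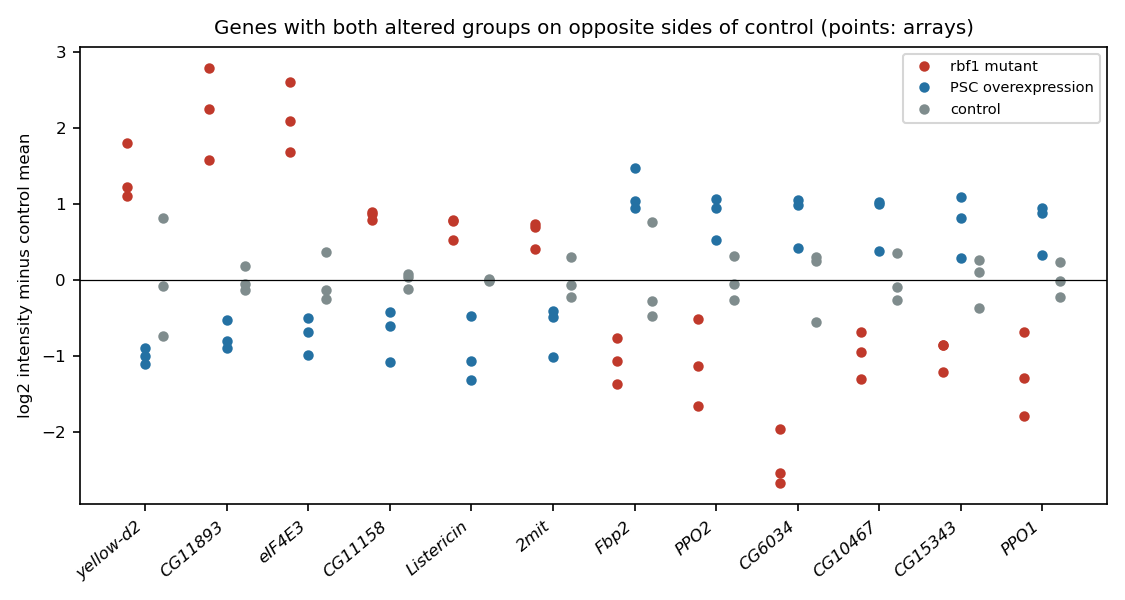
Level of 12 genes relative to the control mean (log2, points: arrays) in rbf1 mutant, PSC overexpressing and control discs. The genes were chosen for this layout, with all rbf1 mutant arrays above and all PSC arrays below control arrays in the left 6. In the right 6, Fbp2 to PPO1, the reverse holds.

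Markers of tissues that can come along with a dissected disc include some of these genes. PPO1 and PPO2 belong to the haemocyte list and Fbp2 to the fat body list, so their falls enter the counts and means given here. The median difference was -0.086 over the haemocyte list and -0.13 over the fat body list. Of 23 haemocyte markers, 1 rose and 3 fell (17.4% called, beside 10.6% over all genes), or 0 and 6 with centred arrays. The mean level of the list was 9.19, 9.08 and 9.29 in rbf1 mutant discs, against 9.57, 9.47 and 9.36 in PSC discs. Control discs stood at 9.30, 9.50 and 9.55. Besides PPO1 and PPO2, the plasmatocyte gene NimC1 fell, at -0.84. Its call was lost without any 1 of 7 arrays (limma adjusted p up to 0.116). Another plasmatocyte gene, Hml, did not pass, at 10.05, 9.98 and 10.42 in rbf1 mutant discs, against 10.13, 10.15 and 9.55 in PSC discs. Of 14 fat body markers, 0 rose and 3 fell by limma (0 and 4 at an unadjusted p under 0.05). Their called share was 21.4%, beside 10.6% over all genes. Their mean level was 6.98, 6.98 and 7.47 in rbf1 mutant discs, against 7.65, 7.52 and 8.01 in PSC discs and 7.5, 7.34 and 7.77 in control discs, and every rbf1 mutant array was below every PSC array. The larval serum gene Lsp2 was at 8.14, 8.22 and 10.45 in rbf1 mutant discs, against 9.49, 9.59 and 10.82 in PSC discs, and did not pass. No marker is at 0 on this log2 scale. The part of haemocytes and fat body in the falls of PPO1, PPO2, NimC1, Fbp2 and bmm (-0.92), a triglyceride lipase gene, was not tested.

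The 6 salivary glue genes did not pass by limma, also at an unadjusted p under 0.05, although their median difference was -2.38. Sgs3 read 6.38, 12.58 and 7.23 in rbf1 mutant discs, against 9.74, 10.94 and 12.84 in PSC discs, and the groups overlapped. With the mean of the glue genes as a covariate, 967 genes passed, of which 920 were also called in the same direction without it, and 38 of the replication genes rose. Of 23 glial markers, 26.1% were called, beside 10.6% over all genes. Among them 6 rose and 0 fell by limma (8 and 2 at an unadjusted p under 0.05). The count was 2 without rbf1 array 1 or 3 or PSC array 2, and 3 without control array 1 or PSC array 1 or 3. It was also 2 with the glue covariate and with centred arrays. nrv2, a sodium pump subunit gene of glia, rose by 0.43 (SE 0.056, limma adjusted p = 0.00208) and repo, the pan-glial transcription factor gene, by 0.29 (SE 0.047, limma adjusted p = 0.00553), and both held without any 1 of the 9 arrays. Among 30 genes of trachea and cuticle, 3 rose and 2 fell (16.7% called, beside 10.6% over all genes). The rises numbered 1 without rbf1 array 1 or 3 or PSC array 1 or 2 and with centred arrays. obst-A, a chitin-binding protein gene, read 13.72, 13.59 and 13.70 in rbf1 mutant discs, against 12.88, 12.81 and 12.86 in PSC discs, a rise of 0.82 (SE 0.050, limma adjusted p = 6.4e-05), with control discs at 13.59, 13.63 and 13.65 among the rbf1 mutant discs. The chitin synthase gene kkv fell by 0.29 and f, which shapes actin bundles of bristles, by 0.61. f is also 1 of 4 measured genes used as visible strain markers, of which 2 rose and 1 fell. The rises, of y and ry, numbered 0 without any 1 of the rbf1 mutant or PSC arrays and with centred arrays, and the other f probe set differed by -0.16 (adjusted p = 0.251 in the limma fit of single probe sets). Among 18 muscle markers, 1 rose and 1 fell (11.1% called, beside 10.6% over all genes). The mesodermal gene twi at 0.65 (SE 0.122, limma adjusted p = 0.0114) held without any 1 of the 9 arrays. Among 34 brain and neuroblast markers, 3 rose and 2 fell (14.7% called), and ase was the only call that held.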

How the data were processed

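Total RNA from eye discs was amplified to biotin-labelled cRNA and hybridized to 1-channel arrays, per the labels' protocols. The authors summarised each probe set with RMA and deposited the result on the log2 scale, per the submitters' processing notes. Its version was not given in the labels or notes. RMA compresses differences near background. Control probe sets (183 of 18952) were left out. Of the rest, 13647 probe sets named 1 gene, 402 several and 4720 none. Each of 11983 genes was read from its brightest probe set, judged on 9 arrays together (1094 had more than 1). Of 140 called genes with more than 1 probe set, 32 had another called the same way and 2 had another called the opposite way. In 94 of them every other probe set had the same sign. Symbols came from a RefSeq table of Release 6 plus ISO1 MT (11894 of 11983 identifiers matched), which served for names and neighbours only.

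The 9 arrays entered one limma 3.58.1 fit in R 4.3.3 with a mean per group and default eBayes. The contrast was rbf1 mutant minus PSC overexpression, with p-values adjusted across the 11983 genes (Benjamini-Hochberg) and called under 0.05. The control arrays enter only the estimate of spread. There were 3 arrays per group, which limits the precision. Figures used matplotlib 3.10.9 in Python 3.11.15. In simulated data with 200 of 11983 genes changed, 76.1% of changes of 0.5, 95.5% of changes of 1 and 97.0% of changes of 2 were recovered, with 4 false calls. The simulated noise was independent between genes and the changes were placed in rbf1 mutant arrays only. Shifts that many genes of an array share were not simulated, so these figures do not give the error rate of the real calls. Members and 42 gene lists were chosen with earlier results of these data known, and lists are described by counts and medians without a set test. Named genes are Rbf and Psc, the 15 largest differences each way among called genes with groups that do not overlap, up to 4 called members per list and direction by adjusted p (all where 5 or fewer were called), up to 6 genes each way on opposite sides of control, and list members that did not pass. Role groups within the replication list, and the members named from them or as tissue checks beyond this rule, were chosen after their values were seen. Between same-numbered rbf1 mutant and PSC arrays, deviations from the group means correlated at r = -0.086, -0.438 and 0.357. With both signs among them, numbers were not used as pairs in the main fit, and shared handling was not tested. Alternatives were other samples in the fit, other moderation, other scaling, other probe set rules, a glue covariate and leaving out each of the 9 arrays. Promoter and protein sequences were not analysed here, although a search of promoters for E2F motifs was planned.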

Additional observations from a re-analysis of the deposited data

Results flagged for a closer look

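For 183 called genes, every array of 1 altered genotype lay above all control arrays and every array of the other lay below them. Only the direct contrast between the genotypes had to pass for this count, not the difference of each from control. The differences of rbf1 mutant minus PSC discs with the widest gaps to control were 2.37 for yellow-d2 (Yellow family), 2.94 for CG11893, 2.85 for eIF4E3, 1.55 for CG11158, 1.64 for Listericin and 1.24 for 2mit among genes above control in rbf1 mutant discs. The other 2mit probe sets differed by -0.33 and 0.07. Among genes below control in rbf1 mutant discs they were -2.21 for Fbp2, -1.94 for PPO2, -3.21 for CG6034, -1.78 for CG10467, -1.71 for CG15343 and -1.97 for PPO1. Against control, rbf1 mutant discs passed for yellow-d2, CG11893, eIF4E3, CG6034, PPO1 and PPO2. PSC discs did not pass against control for these genes (limma adjusted p from 0.179 to 0.246). For Fbp2 neither passed (limma adjusted p = 0.0742 for rbf1 mutant and 0.102 for PSC discs).

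Probe sets outside the gene comparison also passed, in a separate fit over probe sets without exactly 1 gene. Of 4720 probe sets with no gene named, 124 (2.63%) passed limma, 72 higher and 52 lower in rbf1 mutant discs. The largest were 1637046_at at 5.11 and 1640875_s_at at -2.81. Of 402 probe sets that name several genes, 35 (8.71%) passed, 19 higher and 16 lower.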

How the results depend on the processing

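Of 2964 results for 168 named genes under other settings, 2464 kept their direction and side of the threshold, 500 kept their direction only, and 80 genes were called in each setting run. The unmoderated test on the 6 arrays called 608 genes (426 higher and 182 lower), and centring arrays moved the lower count to 748. Leaving out 1 array at a time gave 843 to 1288 genes, 567 to 835 higher and 263 to 453 lower. It gave 9 to 16 mitotic rises, 37 to 40 replication rises and 17 to 19 repair rises. Genes on opposite sides of control numbered 188 to 296, beside 183 with every array. A left-out array also drops out of that rule, which is then easier to meet, so this range does not measure stability. Mitotic rises were 9 in the unmoderated test, with centred arrays and with the glue covariate. Rbf stayed at -0.39 but did not pass with only the 6 arrays (limma adjusted p = 0.0644) or in the unmoderated test (adjusted p = 0.175), and stood at -0.40 with the glue covariate (limma adjusted p = 0.0743). Without 1 array it ran from -0.47 to -0.31. With the replicate number as a block, 1315 genes passed (858 higher and 457 lower), 1114 of them also called in the same direction without it. The cause of these shifts was not tested. Signal near background limits dim genes, whose differences are compressed.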
